A study of Mus musculus with 6 samples.

Results

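The LDL receptor family is a set of cell-surface receptors with cysteine-rich class A repeats. Its members bind lipoproteins, proteases, matrix proteins and signalling ligands, and many carry them into the cell. The 9 members described here are Vldlr, Lrp1, Lrp2, Lrp4, Lrp5, Lrp6, Lrp8, Lrp10 and Lrp12. They were taken by gene symbol from a fixed list and make up 9 of the 49315 genes in the count files. RNA came from tumour endothelium of mice bearing 4T1, an established murine mammary carcinoma line. Female Balb/c mice aged 8 weeks received the cells in the inguinal mammary fat pad and carried the tumours for 2 weeks, to an age of 10 weeks. All mice, including the source of the negative fractions, received 1E12 gold nanoparticles of 50 nm, coated with 5 kDa methoxy-polyethylene glycol and labelled with Cy5, by tail vein 1 hour before harvest. Digested tumours were depleted of CD45 cells (leukocytes), enriched for CD31 cells (endothelium) and sorted by flow cytometry into a nanoparticle-positive (NP+) and a nanoparticle-negative (NP-) fraction. The 3 tumours carry the labels MET-106, MET-107 and MET-108. Each gave 1 NP+ and 1 NP- library, so each group holds 3 libraries.

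In the lipoprotein receptors, class A repeats bind ligand and propeller domains release it in the acidic endosome, so that the receptor can recycle. Short tail motifs recruit clathrin adaptors. In endothelium, Vldlr is known for binding triglyceride-rich lipoproteins and reelin, and Lrp5 and Lrp6 for carrying Wnt and norrin signals together with the receptor Fzd4. Lrp1 is a large scavenging receptor that fibroblasts, smooth muscle cells and macrophages also express, and Lrp2 (megalin) is best known from absorptive epithelia. Lrp10 and Lrp12 are distant relatives that carry CUB domains beside class A repeats, and Lrp10 cycles between the trans-Golgi network and endosomes.

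Lrp10 had the highest CPM (counts scaled to a common library size) of the members in all 6 libraries. In the NP- library of MET-108 Lrp6 was nearly level with it, at 26.3 against 26.5 CPM. Lrp10 separated the fractions, as did 13.3% of genes tested in the same direction. Its mean was 306.7 ± 18.4 CPM for NP+ against 64.7 ± 38.4 CPM for NP- (mean ± SD, n = 3 libraries each, here and below). Lrp1 and Lrp2 lay lower in NP+ in all 3 tumours, but different NP- libraries carried the difference. Lrp2 overlapped between the fractions, as did Vldlr, Lrp4, Lrp5, Lrp6, Lrp8 and Lrp12. All 9 members passed the filter on low counts. In edgeR's quasi-likelihood test 0 of the 9 had an adjusted p under 0.05, where 0.0292% of the 23989 genes tested did, and the lowest adjusted p among them was 0.0887, for Lrp10. At an unadjusted p under 0.05, 1 of the 9 was higher in NP+ (8.01% of all genes tested) and 2 were lower (15.4%). DESeq2, run as an alternative, called Lrp10 higher (3.53% of 27686 genes were) and Lrp1 and Lrp2 lower (11.4% were) at an adjusted p under 0.05. The samples are bulk RNA, so fewer cells of a type and less RNA per cell cannot be told apart.

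The libraries held 20856410 to 58089600 counts in genes. The NP+ libraries correlated at 0.959 to 0.969 with each other (log2 CPM), while the NP- libraries were unlike each other: MET-106 and MET-107 correlated at 0.876, MET-106 and MET-108 at 0.838, and MET-107 and MET-108 at 0.832. MET-106 was the NP- library most like the NP+ libraries, at 0.945 to 0.951, and MET-108 the least, at 0.832 to 0.851. The NP- library of MET-106 also held the highest summed level of fibroblast markers, 3017 CPM, against 106.5 and 48.6 CPM in the NP- libraries of MET-107 and MET-108 and 12.7 to 50.2 CPM in NP+. The 8 pan-endothelial markers, Pecam1 (CD31) among them, summed to 8422 to 10650 CPM in NP+ against 5476 to 7818 CPM in NP-, with none at 0 in any library. Counts in 1106 olfactory receptor genes, which endothelial cells are not known to use, had a mean density of 0.0321 to 0.0977 CPM per kb in NP+ against 0.0847, 0.421 and 0.333 CPM per kb in the NP- libraries of MET-106, MET-107 and MET-108. That density is a mean over genes without a spread between them, so the ratios to it given for members do not say whether 1 gene exceeds background.

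Upstream sequences are shown for Lrp10, Lrp1 and Lrp2, the members with the largest differences between fractions. RefSeq's promoter table (GRCm38.p6) held 5 of the 9 members, and windows of the 250 bases before RefSeq's start were searched. RefSeq's starts for Lrp10 and Lrp2 differ from those of the count files, and that for Lrp1 does not. The Lrp10 window ends 17 bases short of the gene given there. For Lrp2, 36 bases of the window fall inside the gene, hold no match and are left out of the print. The sequences run 5′ to 3′ on the gene's strand. They lie at chr14:54463897-54464146 (plus strand) for Lrp10, chr10:127621149-127621398 (minus strand) for Lrp1 and chr2:69586066-69586279 (minus strand) for Lrp2. Capitals mark matches, on either strand, to any of 6 motifs: the GC box GGGCGG, the CCAAT box (letters as in its name), the TATA box TATAAA, the E-box CACGTG, the ETS core CCGGAA and the sterol regulatory element core TCACNCCAC.
Lrp10: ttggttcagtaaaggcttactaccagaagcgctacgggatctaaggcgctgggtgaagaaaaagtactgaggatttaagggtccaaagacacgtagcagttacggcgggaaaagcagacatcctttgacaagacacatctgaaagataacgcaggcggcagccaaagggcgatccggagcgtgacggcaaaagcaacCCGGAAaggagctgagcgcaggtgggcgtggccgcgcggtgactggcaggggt
Lrp1: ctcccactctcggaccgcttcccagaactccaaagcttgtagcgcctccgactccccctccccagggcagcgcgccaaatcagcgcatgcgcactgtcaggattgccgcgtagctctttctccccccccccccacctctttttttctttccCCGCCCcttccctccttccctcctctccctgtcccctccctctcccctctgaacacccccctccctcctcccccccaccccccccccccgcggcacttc
Lrp2: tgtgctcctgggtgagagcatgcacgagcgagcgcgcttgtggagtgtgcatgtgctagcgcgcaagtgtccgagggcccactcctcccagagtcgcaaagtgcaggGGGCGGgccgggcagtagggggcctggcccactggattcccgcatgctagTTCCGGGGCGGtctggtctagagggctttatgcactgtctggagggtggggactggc
The Lrp10 window held 1 ETS core and no GC box. The Lrp1 window held 1 GC box. The Lrp2 window held 2 GC boxes and 1 ETS core, of which the second GC box and the ETS core share bases. Over all 32851 windows of this length, 32.7% held the GC box, 33.8% the CCAAT box, 12.4% the TATA box, 6.02% the E-box, 12.0% the ETS core and 1.05% the sterol element core. Over the whole window, GC content was 55.6% for Lrp10, 67.2% for Lrp1 and 66.4% for Lrp2, against a median of 52.4% over all windows. These matches are letters in a window and not sites of binding.

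**Figure D1:**
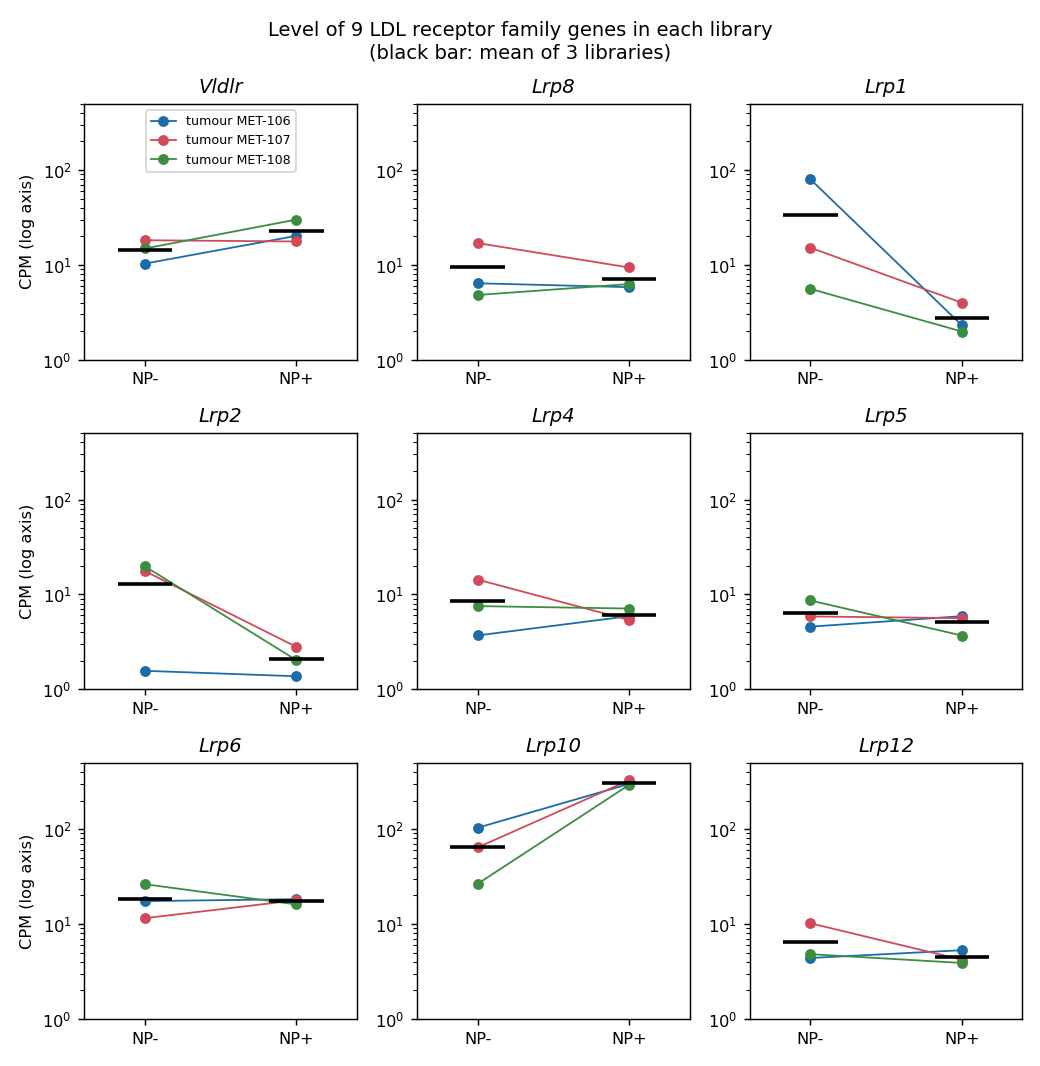
Level of each member in CPM (log axis) in the NP- and NP+ library of each tumour, joined by a line per tumour, with the mean of 3 libraries as a black bar. In all 3 tumours Lrp10 lies higher and Lrp1 and Lrp2 lie lower in NP+. Lrp2 and the other 6 members overlap between the fractions.

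Lrp10 (ENSMUSG00000022175) lies on chromosome 14 from 54464164 to 54471497, plus strand, in GRCm38. In tumour order MET-106, MET-107, MET-108, used throughout, its NP+ levels were 299.7, 328, 293 CPM and its NP- levels 103, 64.2, 26.5 CPM. The 3 NP+ levels lay close together and all above the NP- levels, while the NP- levels spread from 26.5 to 103 CPM. These levels rest on 10917, 17987 and 11675 counts in NP+ and 4950, 1545 and 788 in NP-. Within tumours the NP+ level was 2.90, 5.10 and 11.1 times the NP- level, and the ratio of the group means was 4.74. The log2 fold change (NP+ over NP-) was 2.24 with an SE of 0.42 and a 95% interval from 1.29 to 3.19 (unadjusted p = 0.000498, edgeR's adjusted p = 0.0887). It was higher than that of 99.9% of the genes tested. The authors' deposited table gives a log2 fold change of 2.29, with its sign turned to NP+ over NP-, and an adjusted p of 1.38e-05.

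Lrp10 kept its direction when any single library or tumour was left out. Without the NP- library of MET-106 its log2 fold change was 2.82 and the edgeR adjusted p 0.016. Dropping the MET-108 NP- library instead gave 1.89 and 0.0285, and leaving out another single library gave an adjusted p of 0.211 to 0.399. Among the NP- libraries, the Lrp10 level ran opposite to the summed pan-endothelial markers, which were 5476 CPM in MET-106, 7091 in MET-107 and 7818 in MET-108. The part of marker levels in the Lrp10 difference was not tested. Per length, Lrp10 exceeded the olfactory receptor density 798 to 2221 times in NP+ and 290, 36.3 and 18.9 times in the NP- libraries of MET-106, MET-107 and MET-108. By count of groups that do not overlap, Lrp10 was the 1 member wholly higher in NP+ (13.3% of genes tested were) and Lrp1 the 1 member wholly lower (15.6% were).

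Lrp12, the other member with CUB domains (ENSMUSG00000022305, chromosome 15 from 39870603 to 39943994, minus strand), did not follow Lrp10. NP+ libraries gave Lrp12 levels of 5.30, 4.21 and 3.89 CPM and NP- libraries 4.39, 10.2 and 4.81 CPM. The highest value was the NP- library of MET-107 and the groups overlapped. This gave a log2 fold change of -0.53 (SE 0.47, 95% interval -1.59 to 0.53, edgeR's adjusted p = 0.489), and of -0.03 without that library.

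**Figure D2:**
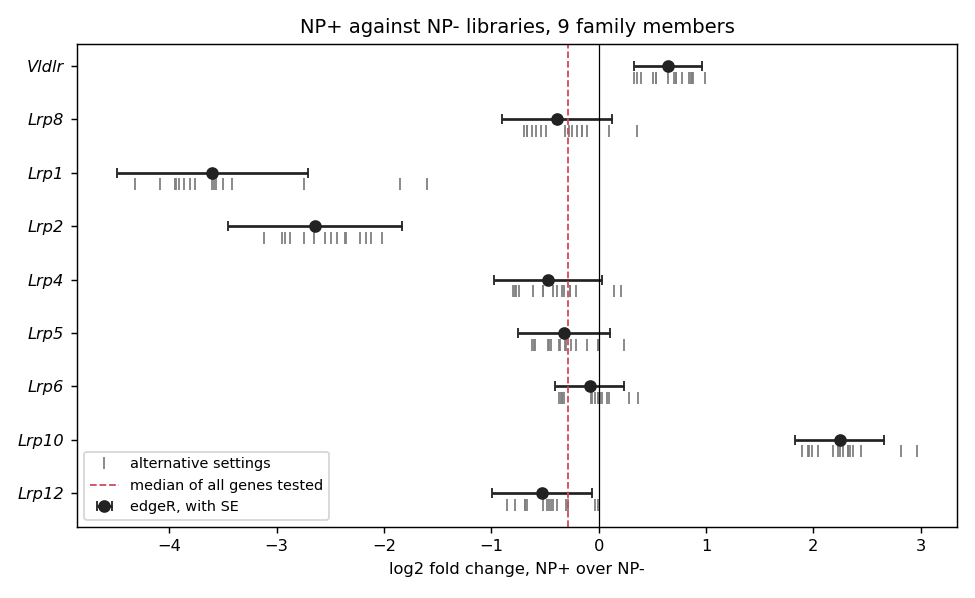
Log2 fold change (NP+ over NP-) of each member by edgeR with its SE (black), under the alternative settings (grey ticks) and the median of all genes tested (dashed). Lrp10 at 2.24, Lrp1 at -3.60 and Lrp2 at -2.64 lie away from the other members.

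Among the shorter receptors, Vldlr binds lipoproteins and reelin (ENSMUSG00000024924, chromosome 19 from 27216484 to 27254231, plus strand). Its levels were 20.2, 17.6 and 30.0 CPM in NP+ against 10.3, 18.2 and 14.9 CPM in NP-. NP+ exceeded NP- in MET-106 and MET-108, by 1.96 and 2.02 times, and the libraries of MET-107 were nearly level. Vldlr's log2 fold change was 0.65 (SE 0.32, 95% interval -0.07 to 1.37, edgeR's adjusted p = 0.249). It stayed above 0 under all 16 alternatives run, from 0.33 with total-count scaling to 0.99 without tumour MET-107. Lrp8, a reelin receptor (ENSMUSG00000028613, chromosome 4 from 107802261 to 107876840, plus strand), stood at 5.82, 9.38 and 6.27 CPM in NP+ against 6.39, 17.0 and 4.81 CPM in NP-. In both fractions MET-107 gave the highest Lrp8 level, and the groups overlapped. The log2 fold change of Lrp8 was -0.39 (SE 0.51, 95% interval -1.55 to 0.78, edgeR's adjusted p = 0.649), and 0.36 without the NP- library of MET-107.

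Lrp1, the large scavenging receptor (ENSMUSG00000040249, chromosome 10 from 127538161 to 127621148, minus strand), was scarce in NP+, at 2.31, 3.99 and 1.98 CPM. In NP- it stood at 79.8, 15.2 and 5.58 CPM. All NP- levels lay above all NP+ levels, and 1 library, the NP- library of MET-106, was far above the rest. The NP- mean of 33.5 ± 40.4 CPM was 12.2 times the NP+ mean of 2.76 ± 1.08 CPM, and without that library it was 10.4 CPM, 3.76 times the NP+ mean. Lrp1 had a log2 fold change of -3.60 (SE 0.89, unadjusted p = 0.00305, edgeR's adjusted p = 0.12). It was -1.85 without that library (adjusted p = 0.0688) and -4.09 without the NP- library of MET-108 (adjusted p = 0.0366). The authors' deposited table gives Lrp1 a log2 fold change of -3.60, in the same sense, and an adjusted p of 0.0157.

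Like Lrp1, all 6 fibroblast markers and all 6 pericyte and smooth muscle markers were highest in the NP- library of MET-106, and both cell types also use Lrp1. The 6 fibroblast markers summed to 3017, 106.5 and 48.6 CPM in NP-, and none was at 0 in any library. The 6 pericyte and smooth muscle markers summed to 62.1 to 734.4 CPM in NP-, in the same order, against 14.6 to 54.4 CPM in NP+. Within NP-, all 6 of the latter but 3 of the 6 fibroblast markers followed the order of Lrp1. All 6 epithelial markers were also highest in the NP- library of MET-106, and 5 of them followed that order. These epithelial markers summed to 544.5, 31.3 and 14.3 CPM in NP-, against 9.01 to 12.9 CPM in NP+. The 6 macrophage markers, none at 0, summed to 118, 62.6 and 38.5 CPM in NP-, against 15.8 to 24.0 CPM in NP+, but Lyz2 alone set that order. Without Lyz2 the other 5 summed to 22.6, 27.9 and 32.2 CPM in NP-, opposite to Lrp1, and to 11.4 to 18.2 CPM in NP+. One of the fibroblast markers, Pdgfra, averaged 13.97 ± 9.48 CPM over NP- against 1.22 ± 0.712 CPM over NP+ and was highest in the same library as Lrp1. The part of these cell types in the Lrp1 difference was not tested. Outside the NP- library of MET-106, where Lrp1 was 53.2 times the olfactory receptor density per length, it was 0.946 to 4.05 times that density.

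Lrp2, or megalin (ENSMUSG00000027070, chromosome 2 from 69424340 to 69586065, minus strand), was at 1.37, 2.80 and 2.03 CPM in NP+ against 1.57, 17.6 and 19.8 CPM in NP-. The NP- libraries of MET-107 and MET-108 stood high, and the NP- library of MET-106 fell among the NP+ values, so the groups overlapped. NP- was 1.14, 6.29 and 9.75 times NP+ within the 3 tumours. Lrp2 had a log2 fold change of -2.64 (SE 0.81, unadjusted p = 0.0103, edgeR's adjusted p = 0.143), and -3.12 with an adjusted p of 0.0146 without the NP- library of MET-106. The authors' deposited table gives Lrp2 a log2 fold change of -2.53, in the same sense, with an adjusted p of 0.00826.

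The libraries with high Lrp2 were those with a high olfactory receptor density. Lrp2 per length was 2.56, 1.72 and 2.15 times that density in NP+ and 1.11, 2.51 and 3.56 times in NP-, so on this scale the groups overlapped and the NP- library of MET-106 was lowest. Epithelial markers summed to 544.5 CPM in the NP- library of MET-106, where Lrp2 was low, and to 31.3 and 14.3 CPM in the other NP- libraries. In NP+ they summed to 9.01 to 12.9 CPM, and none of the 6 was at 0 in any library. The sum of the lymphatic endothelial markers was also high in the libraries with high Lrp2: the 5 summed to 246, 1661 and 687 CPM in NP-, against 390 to 441 CPM in NP+, with none at 0. In the NP- library of MET-108, Prox1, Lyve1 and Mmrn1 lay above that of MET-106 and all NP+ libraries. Flt4 there, at 199.3 CPM, lay within its NP+ range of 191.0 to 202.9 CPM. Pdpn was lower there, at 8.34 CPM, than in the NP- library of MET-106, at 13.5 CPM. All 5 of these markers and the olfactory receptor density were highest in the NP- library of MET-107, whereas Lrp2 was highest in that of MET-108. The part of the olfactory receptor density, or of lymphatic or epithelial cells, in the Lrp2 difference was not tested.

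**Figure D3:**
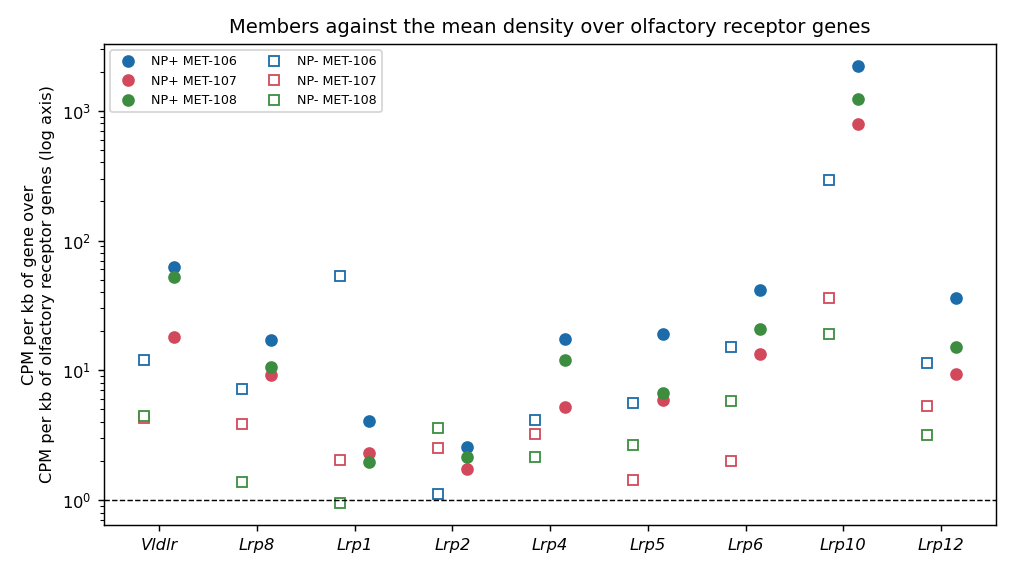
Level per length of each member divided by the mean density over olfactory receptor genes of the same library (log axis), for NP+ (filled circles) and NP- (open squares), coloured by tumour. Lrp2 stays between 1.11 and 3.56 in all 6 libraries, Lrp1 exceeds 4.05 in 1 library only, and Lrp10 lies at 18.9 or above in each.

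Of the members tied to Wnt signalling, Lrp6, a Wnt co-receptor (ENSMUSG00000030201, chromosome 6 from 134446476 to 134566965, minus strand), stood at 18.3, 17.8 and 16.1 CPM in NP+ against 17.4, 11.5 and 26.3 CPM in NP-. The means were 17.4 ± 1.16 and 18.4 ± 7.44 CPM, and the log2 fold change was -0.08 (SE 0.32, 95% interval -0.82 to 0.65, edgeR's adjusted p = 0.884). NP+ values lay inside the NP- range, and the interval leaves room for changes of either sign. Lrp5, its close relative (ENSMUSG00000024913, chromosome 19 from 3584828 to 3686564, minus strand), stood at 5.90, 5.63 and 3.69 CPM in NP+ against 4.57, 5.86 and 8.64 CPM in NP-. Lrp5 had a log2 fold change of -0.33 (SE 0.43, 95% interval -1.30 to 0.65, edgeR's adjusted p = 0.647), with overlapping groups. Lrp4, an agrin receptor that also dampens Wnt signals (ENSMUSG00000027253, chromosome 2 from 91457511 to 91513779, plus strand), stood at 5.90, 5.37 and 7.10 CPM in NP+ against 3.70, 14.3 and 7.53 CPM in NP-. Its NP- values spanned the whole NP+ range. The log2 fold change of Lrp4 was -0.47 (SE 0.50, 95% interval -1.61 to 0.67, edgeR's adjusted p = 0.566), and 0.14 without the NP- library of MET-107.

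Compared per length, as CPM per kb of exons, the NP+ libraries shared 1 order at the top. Lrp10 stood at 73.0 ± 4.37, Vldlr at 2.25 ± 0.647, Lrp6 at 1.27 ± 0.0848 and Lrp12 at 0.976 ± 0.162 CPM per kb, and these 4 held ranks 1 to 4 in each NP+ library. Lrp8 (0.681 ± 0.184), Lrp4 (0.583 ± 0.0842) and Lrp5 (0.521 ± 0.124 CPM per kb) followed and lay within each other's spread. Lrp1 (0.156 ± 0.0608) and Lrp2 (0.124 ± 0.0429 CPM per kb) came last and did not differ beyond their spread. In NP-, Lrp10 was again first, at 15.4 ± 9.15 CPM per kb, and the order below it differed from library to library. Rank 2 went to Lrp1 in MET-106, Lrp12 in MET-107 and Lrp6 in MET-108.

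Summed over the 9 members, the level per length was 77.8, 84.3 and 76.6 CPM per kb in NP+ against 33.9, 25.7 and 14.3 CPM per kb in NP-. Lrp10 made up 91.7, 92.5 and 91.0% of that sum in NP+ and 72.6, 59.6 and 44.0% in NP-. Without Lrp10 the other 8 summed to 6.44, 6.35 and 6.89 CPM per kb in NP+ against 9.29, 10.4 and 8.02 CPM per kb in NP-. That sum lay lower in NP+, which does not hold for each member. In MET-106, Lrp1 alone gave 4.51 CPM per kb of it in NP- and 0.130 in NP+. The olfactory receptor density, 0.421 and 0.333 CPM per kb in the NP- libraries of MET-107 and MET-108 against 0.0321 to 0.0977 in NP+, was not subtracted. These sums are given as a description of the members, with no test.

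**Figure D4:**
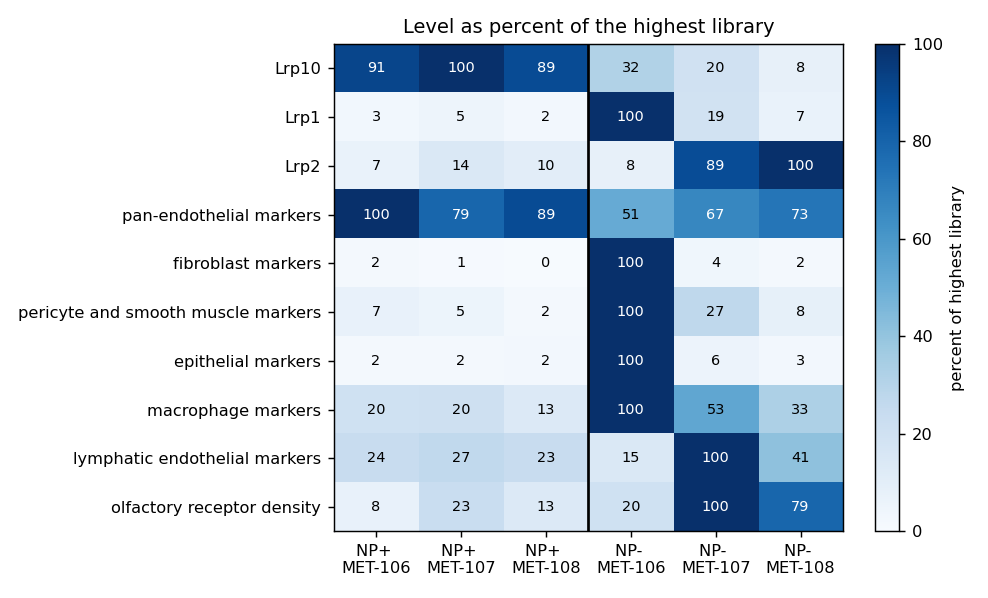
Level of Lrp10, Lrp1 and Lrp2, summed level of 6 marker lists and olfactory receptor density in each library, as percent of the highest library for that row. Lrp1 peaks with the fibroblast, smooth muscle and epithelial markers in the NP- library of MET-106, where the macrophage sum peaks through Lyz2. Lrp2, the sum of the lymphatic endothelial markers and the olfactory receptor density are highest in the NP- libraries of MET-107 and MET-108. Lrp2 peaks in that of MET-108, and the lymphatic markers and the density peak in that of MET-107.

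The genes whose profile was most like a member's were ranked by Pearson's r of log2 CPM over the 6 libraries, among 10825 genes with a mean of at least 5 CPM. The libraries come in pairs from 3 tumours, and the values are a description. For Lrp10 these were Trp53rka (r = 0.998) and Itga2 (r = 0.998), and 33 genes reached an r of at least 0.99. Those for Lrp1 were Ifitm1 (r = 0.996) and Serinc2 (r = 0.99), and for Lrp2 they were Ttn (r = 0.996) and Arfgef1 (r = 0.994). Vldlr was closest to Pdia5 (r = 0.998) and Ticam1 (r = 0.986). Lrp4 was closest to Jup and Invs, Lrp5 to Prokr2 and Tymp, Lrp6 to Stx8 and BC024978, Lrp8 to Fam221b and Cngb1, and Lrp12 to Nup35 and Cep95, with r between 0.973 and 0.997.

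Chaperones, adaptors and turnover enzymes of the family made a list of 18 genes, all tested. At an unadjusted p under 0.05, 2 were higher in NP+ (8.01% of all genes tested were) and 2 lower (15.4% were). Of the 18, 0 passed edgeR's adjusted threshold. Their log2 fold changes had a median of 0.23, and those of all genes tested a median of -0.29. Snx17, a sorting nexin that recycles family receptors, averaged 145.2 ± 4.62 CPM in NP+ against 109.3 ± 11.1 CPM in NP- (edgeR's adjusted p = 0.182). The protease gene Adam10 stood at 616.0 ± 72.5 against 443.4 ± 108.5 CPM (edgeR's adjusted p = 0.225). Lrpap1, the chaperone that keeps ligands off the receptors during secretion, ranged from 119.2 to 142.3 CPM in NP+ and from 130.2 to 160.7 CPM in NP- (edgeR's adjusted p = 0.471), and is named outside the rule for its role.

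Genes of extracellular ligands made a list of 15, all tested, of which 0 passed edgeR's adjusted threshold. At an unadjusted p under 0.05, 4 were higher (8.01% of all genes tested were) and 6 lower (15.4% were). Their median log2 fold change was -0.34. Ccn2 (Ctgf in the files) is a matrix-associated ligand of Lrp1 and Lrp6. It stood at 1065, 845 and 1458 CPM in NP+ against 355, 306 and 159 CPM in NP-. All its NP+ levels lay above its NP- levels, as did those of 13.3% of genes tested. Ccn2 had a log2 fold change of 2.04 (SE 0.33, edgeR's adjusted p = 0.0786). Lpl, the lipase that brings lipoproteins to Vldlr, averaged 25.9 ± 8.17 CPM in NP+ against 131 ± 44.5 CPM in NP- and was lower in NP+ in all 3 tumours, with a log2 fold change of -2.34 (SE 0.33, edgeR's adjusted p = 0.06). Serpine2, a protease inhibitor cleared by Lrp1, averaged 15.8 ± 7.13 CPM in NP+ against 123 ± 112 CPM in NP- (edgeR's adjusted p = 0.11). Its NP- level was highest, at 247.8 CPM, in the library of MET-106, which also held the most Lrp1.

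Partners of Lrp4, Lrp5 and Lrp6 made a list of 25 genes, of which 22 were tested. At an unadjusted p under 0.05, 2 were higher (8.01% of all genes tested were) and 6 lower (15.4% were). Of the 22, 0 passed edgeR's adjusted threshold, and the median log2 fold change was -0.62. Fzd4, the norrin and Wnt receptor that pairs with Lrp5 in vessels, stood at 288, 190.5 and 303 CPM in NP+ against 141, 151 and 69.3 CPM in NP-. All NP+ levels of Fzd4 were above all NP- levels (13.3% of genes tested were wholly higher), with a log2 fold change of 1.11 (SE 0.31, edgeR's adjusted p = 0.13). Gsk3b, a kinase of the beta-catenin destruction complex, stood at 106.6 ± 5.05 against 61.9 ± 25.5 CPM (edgeR's adjusted p = 0.165). Znrf3, a ligase that removes Wnt receptors, stood at 4.16 ± 1.27 against 10.9 ± 7.10 CPM (edgeR's adjusted p = 0.175). Of 7 Wnt target genes, 5 were tested, with a median log2 fold change of -0.67. At an unadjusted p under 0.05, 0 were higher (8.01% of all genes tested were) and 0 lower (15.4% were). No gene of that list met the rule for naming.

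A further 7 receptors with class A repeats were all tested, with a median log2 fold change of -0.02. At an unadjusted p under 0.05, 0 were higher (8.01% of all genes tested were) and 2 lower (15.4% were). Sorl1, a sorting receptor, stood at 0.933, 2.84 and 1.88 CPM in NP+ against 6.08, 7.90 and 17.0 CPM in NP- (log2 fold change -2.45, SE 0.58, edgeR's adjusted p = 0.117). Lrp1b, a long relative of Lrp1, stood at 1.02, 2.95 and 2.38 CPM in NP+ against 2.61, 9.56 and 13.7 CPM in NP- (log2 fold change -2.02, SE 0.68, edgeR's adjusted p = 0.151). Like Lrp2, Sorl1 and Lrp1b were highest in the NP- libraries of MET-107 and MET-108, which had the highest olfactory receptor density. Both genes peaked in that of MET-108 and the density in that of MET-107. Per length, Sorl1 was 2.57 to 2.94 times that density in NP+ and 6.34, 1.66 and 4.5 times in NP-. Lrp1b was 1.27 to 1.77 times it in NP+ and 1.30, 0.955 and 1.73 times in NP-. The part of that density in the Sorl1 and Lrp1b differences was not tested. Ldlrad4 stood at 41.9 ± 7.70 against 35.4 ± 3.68 CPM (edgeR's adjusted p = 0.492).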

How the data were processed

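The 6 deposited count files give whole-number counts per gene. The tools listed in the submitters' processing notes are STAR 2.5.2b, featureCounts (Subread 1.5.2), Trimmomatic 0.036 and DESeq2, and the build is GRCm38 (mm10). Libraries were made with SMART-Seq v4, which marks neither strand nor molecules, and read as 150 bp pairs, per the labels' protocols. For the annotation release, strandedness and multi-mapping reads, the settings are not given in the sources consulted. No exon of a member overlaps another gene's exon in the count files. The authors' deposited table holds a normalized signal (counts divided by a size factor: multiplied back by the recovered factor, 100% of values equalled the deposited counts within 0.01 reads), log2 fold changes of NP- over NP+, p-values and adjusted p-values. Signs were turned to NP+ over NP-.

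Fractions were compared with edgeR's quasi-likelihood test (edgeR 4.0.16, R 4.3.3), using TMM scaling and filterByExpr (minimum count 10), without a block, and Benjamini-Hochberg adjustment over 23989 genes at 0.05. An SE is the log2 fold change divided by the square root of F. CPM use tested counts and TMM factors, and CPM per kb divide by the exon length in the count files. DESeq2 1.42.0 was an alternative. Same-numbered libraries come from the same tumour, per the labels, and the correlations of their deviations from the group means were 0.282 (MET-106), 0.214 (MET-107) and 0.0209 (MET-108). All p-values rest on 3 tumours. The test was also run on simulated counts with known changes, drawn without a tumour effect, and no result here rests on that run.

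The members, the lists and the olfactory receptor density were chosen with earlier results of these data known. From each list of partners, the text names up to 3 genes in order of p that averaged 5 CPM or more and moved alike in 3 of 3 tumours, and for each member the 2 genes with the highest correlation. Pdgfra and Lrpap1 are named outside this rule, after their values were seen. A gene that the rule names is not reported here. Adipocyte markers summed to 1.28 to 2.20 CPM in NP+ and 1.69 to 6.19 CPM in NP-. Alternatives were the tumour block, other scalings and filters, and leaving out libraries or tumours.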

Additional observations from a re-analysis of the deposited data

How the results depend on the processing

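Lrp10 and Vldlr kept a positive and Lrp1, Lrp2 and Lrp12 a negative log2 fold change under every alternative in which they were tested. With the tumour as a replicate block, the log2 fold changes were 2.44 for Lrp10, -2.75 for Lrp1 and -2.12 for Lrp2, and 0 members passed the adjusted threshold, as without it. The block gave 2 genes higher and 13 lower, against 3 and 4 without it. The counts of genes higher and lower were 976 and 3147 with DESeq2, 525 and 686 without a filter, and 18 and 87 with at least 5 CPM in 3 libraries. They were 3 and 18 with upper-quartile and 2 and 9 with total-count scaling, an alternative chosen after seeing the data. Leaving out 1 library gave 0 to 968 higher and 0 to 1352 lower, and leaving out a tumour gave 0 higher and 0 or 1 lower. Scaling moved the median log2 fold change of all genes from -0.29 (TMM) to -0.53 (upper quartile) and -0.59 (total count).

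Members passing the adjusted threshold became 1 higher and 2 lower with DESeq2 or without a filter, and 0 to 1 in either direction when 1 library was left out. At an unadjusted p under 0.05, 2 members were higher with DESeq2, with RLE scaling, without a filter and without tumour MET-107, and 1 to 2 when 1 library was left out. In the same count 1 member was lower with the 5 CPM filter, which Lrp2 and Lrp12 did not pass, or without any 1 tumour. Small differences changed sign. Lrp4 was at 0.14 without the NP- library of MET-107 and 0.21 without tumour MET-107, Lrp8 at 0.36 and 0.10 in the same fits, and Lrp5 at 0.24 without tumour MET-108. Lrp6 was at 0.01 with DESeq2, 0.10 without a filter, 0.08 and 0.28 without the NP+ or NP- library of MET-108, 0.03 without tumour MET-106 and 0.37 without tumour MET-108. With 1 library left out, the values ran from -0.78 to 0.14 for Lrp4, from -0.32 to 0.28 for Lrp6 and from -0.67 to 0.36 for Lrp8. The cause was not tested. The lowest members rest on few counts, from 50 for Lrp2 in 1 NP+ library, and the reads carry no molecular identifiers.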
